A study of Mus musculus with 12 samples.

Results

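Transcripts of 9 complement genes were followed in 12 RNA-seq libraries of mouse vein: C1qa, C1qb, C1qc, C1ra, C2, C4b and C3, which encode components of the cascade, and C3ar1 and C5ar1, which encode receptors for its cleavage products. They were taken by gene name, each matched a single row, and they are 9 of the 43346 genes in the deposited table. The 6 AVF-CKD libraries came from the venous limb of the AVF after AVF-CKD surgery, and the 6 sham libraries came from the jugular vein after sham surgery, all harvested on day 7. The letters are read here as arteriovenous fistula, a surgical join of an artery to a vein, and chronic kidney disease. The sources used here give neither strain, sex and age nor the way kidney disease was produced. On this reading the groups differ in surgery and may differ in vessel and kidney disease too, and these cannot be told apart. The labels do not say that the libraries came from separate mice, so each p-value reflects only how far these samples scatter, which may be partly technical.

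Complement is a chain of blood and tissue proteins that marks targets for uptake and calls in leukocytes. In the classical pathway C1q binds a target and switches on its proteases C1r and C1s, which cut C4 and C2 to build an enzyme that cuts C3. The lectin pathway reaches C4 and C2 through other recognition proteins, and the alternative pathway amplifies the cutting of C3 with factors B and D. The fragments C3a and C5a signal through C3ar1 and C5ar1 on myeloid cells. The liver makes most plasma complement, whereas C1q is made mainly by macrophages and related myeloid cells, and fibroblasts and other tissue cells can make C1r, C1s, C3 and C4.

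Libraries held 38.65 to 60.14 M counts (M, 1e6 counts), and each member had between 1963 and 107662 counts in every library, so counting error was small beside the spread between libraries. Levels are given as CPM, the counts of a gene per 1e6 counts of its library after TMM scaling. Vein markers were present: Pecam1, an endothelial adhesion molecule, averaged 380 ± 90.1 CPM in AVF-CKD and 419 ± 35.6 CPM in sham (SD, n = 6 each), and Acta2, smooth muscle actin, averaged 735 ± 163 CPM in AVF-CKD and 954 ± 196 CPM in sham. All 6 hepatocyte markers averaged under 1 CPM, with summed levels of 0.471 to 1.24 CPM in AVF-CKD and 0.486 to 1.17 CPM in sham. In such bulk tissue, fewer cells of a type and less RNA per cell cannot be told apart. The libraries AVF-CKD 3 and sham 5 stood apart in being the lowest of their groups for C1ra, C2, C4b and C3, and values without them are given where a result rests on them. Libraries with title numbers 1 to 3 and 4 to 6 also differed in several members, and both sets are described at the end.

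None of the 9 members differed between the groups at an adjusted p below 0.05 (edgeR quasi-likelihood test, Benjamini-Hochberg over 18965 genes), where the share called among all tested genes was 0%. At an unadjusted p below 0.05 the edgeR count was 0 of 9, against 9.34% of all tested genes. DESeq2 and limma each called 0 of 9 as well, against 81 of 19680 genes in DESeq2 and 0 of 18965 in limma. Each had a single member at an unadjusted p below 0.05, C3 in DESeq2 (unadjusted p = 0.0363) and C5ar1 in limma (unadjusted p = 0.0483). Over all genes, 2124 of 18965 were below that level in limma, and a single member of the 9 was close to this share. In DESeq2 2216 genes were below it. That count may include genes beyond the 19680 with an adjusted p, so no share is given. In all 9 genes the AVF-CKD and sham values overlapped, against 0.638% of all tested genes whose groups did not overlap. The fold change was above 1 for 6 of 9 members, against 49.1% of all tested genes, and the median log2 fold change was 0.10 over the members and -0.0025 over all tested genes. That count was 4 of 9 without sham 5 and 9 of 9 without sham 2 or AVF-CKD 6, and the median was -0.02 without sham 5 and 0.19 without AVF-CKD 3. For 8 of 9 members the 95% interval lay within 2-fold in either direction, and C3 was the exception.

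**Figure D1:**
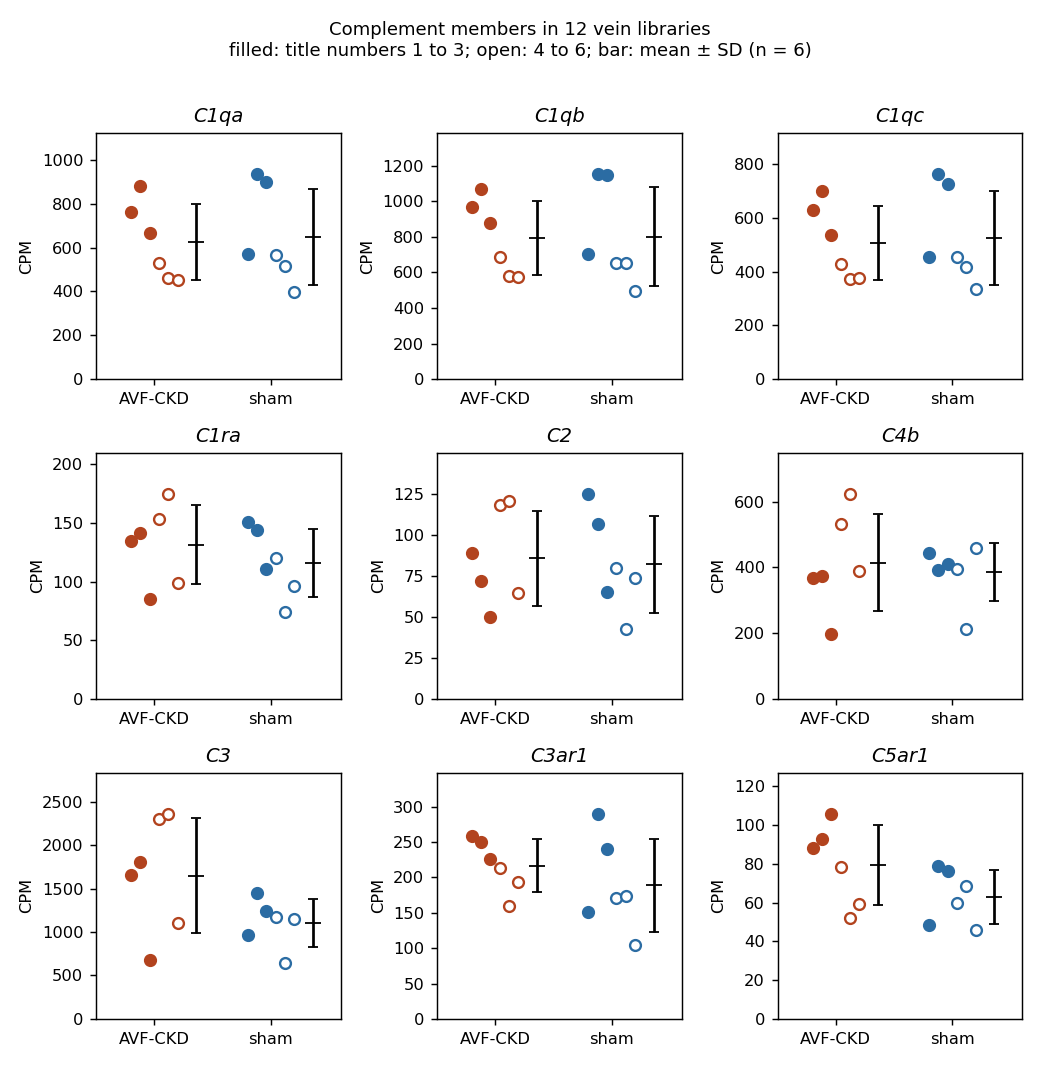
Level of each member in CPM (vertical axes, from 0) in the AVF-CKD and sham libraries, with the mean and SD of 6 libraries beside the points. Filled points have title numbers 1 to 3 and open points 4 to 6. The groups overlap in all 9 genes, and the 4 highest C3 values, 1655 to 2363 CPM, are AVF-CKD libraries.

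The 3 chains of C1q, the recognition protein of the classical pathway, are encoded by neighbouring genes on chromosome 4 (GRCm38, minus strand): C1qb at 136880129 to 136886187, C1qc at 136889804 to 136893065 and C1qa at 136895917 to 136898803. Promoter windows, the 250 bases before the RefSeq start, are shown for the C1q genes the promoter table held and for C3, because these carried a match to a motif of a myeloid or inflammatory factor. C1qb and C1qc had GAGGAA, the core bound by the myeloid factor PU.1, and C3 had TTGCNNAA, a form of the site of C/EBP factors. The capitals mark the matches. The windows are chr4:136886201-136886450, chr4:136892915-136893164 and chr17:57228137-57228386 in GRCm38.p6, all on the minus strand.
C1qb: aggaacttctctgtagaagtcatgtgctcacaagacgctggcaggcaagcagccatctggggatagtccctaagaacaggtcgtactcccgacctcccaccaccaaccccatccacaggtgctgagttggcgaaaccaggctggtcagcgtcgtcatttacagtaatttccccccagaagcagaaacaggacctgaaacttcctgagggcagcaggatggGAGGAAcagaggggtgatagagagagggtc
C1qc: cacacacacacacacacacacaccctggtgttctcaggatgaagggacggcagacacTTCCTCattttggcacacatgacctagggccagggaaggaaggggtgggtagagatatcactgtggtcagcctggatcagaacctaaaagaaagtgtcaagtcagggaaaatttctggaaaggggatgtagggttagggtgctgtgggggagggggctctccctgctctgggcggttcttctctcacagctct
C3: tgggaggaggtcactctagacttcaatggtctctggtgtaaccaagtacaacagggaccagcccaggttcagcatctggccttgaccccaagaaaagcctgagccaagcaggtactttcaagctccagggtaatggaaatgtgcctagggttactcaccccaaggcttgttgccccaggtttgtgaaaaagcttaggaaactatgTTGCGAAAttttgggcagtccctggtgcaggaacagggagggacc
The GAGGAA of C1qb lay on the gene's strand, 30 to 25 bases before the start, and that of C1qc on the opposite strand, 193 to 188 bases before it. The match in C3 lay on the gene's strand, 45 to 38 bases before the start. Searched on both strands of 32851 RefSeq windows of the same length, GAGGAA was present in 23.3% and TTGCNNAA in 9.56%. The STAT site TTCNNNGAA (7.02% of windows) and the interferon-stimulated response element (2.98% of windows) had no match in the 6 member windows held, those of C1qb, C1qc, C1ra, C3, C3ar1 and C5ar1. Each printed window held 1 match, so no searched motifs overlapped there, and a match is a description of the letters only.

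C1q transcripts were abundant in every library. C1qb (ENSMUSG00000036905) had 576, 784 and 1070 CPM in AVF-CKD (lowest, median and highest) against 497, 680 and 1155 CPM in sham. Both ends of the range over all 12 libraries were sham samples. The mean was 794 ± 209 CPM in AVF-CKD and 802 ± 279 CPM in sham, a log2 fold change of -0.01 ± 0.23 (SE, 95% interval -0.51 to 0.49, edgeR adjusted p = 0.994). C1qa (ENSMUSG00000036887) had 452, 597 and 881 CPM in AVF-CKD against 397, 569 and 936 CPM in sham, a log2 fold change of -0.05 ± 0.23 (-0.55 to 0.45, edgeR adjusted p = 0.966). C1qc (ENSMUSG00000036896) had 372, 482 and 700 CPM in AVF-CKD against 337, 455 and 763 CPM in sham, a log2 fold change of -0.05 ± 0.23 (-0.54 to 0.44, edgeR adjusted p = 0.965). The spread within a group was wide for all 3 genes, but the chains kept near-fixed proportions to each other. Per length, C1qa stood at 0.794 to 0.862 of C1qb in AVF-CKD libraries and 0.821 to 0.905 in sham libraries. C1qc stood at 0.343 to 0.370 of C1qb per length in AVF-CKD and 0.357 to 0.393 in sham, where the counted C1qc model was longer, at 1931 against 1088 bases.

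C1ra (ENSMUSG00000055172, chromosome 6, 124512632 to 124523440, plus strand) encodes C1r, the protease that C1q activates first. It had 85.0, 138 and 175 CPM in AVF-CKD against 73.9, 115 and 151 CPM in sham. The 2 highest values were AVF-CKD libraries and the lowest a sham library. Its mean was 131 ± 33.8 CPM in AVF-CKD and 116 ± 29.0 CPM in sham, a log2 fold change of 0.18 ± 0.20 (-0.25 to 0.61, edgeR adjusted p = 0.815). C1s1, the partner protease of C1r and the most abundant per length among the other genes of this step, averaged 483 ± 131 CPM in AVF-CKD and 467 ± 98.7 CPM in sham, a log2 fold change of 0.05 ± 0.19 and an adjusted edgeR p of 0.957. The duplicated copy C1rb held 14.5 to 16.1% of the C1ra level in AVF-CKD and 13.9 to 19.3% in sham, and reads could be split between such copies.

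C2 and C4b encode the parts of the C3-cutting enzyme of the classical and lectin pathways, and both lie in the class III region of the major histocompatibility complex on chromosome 17 (minus strand). C4b (ENSMUSG00000073418, 34728380 to 34743882) had 197, 383 and 624 CPM in AVF-CKD against 212, 404 and 459 CPM in sham. The AVF-CKD values spanned the sham range, with 2 libraries above its top and AVF-CKD 3 below its bottom. The mean was 415 ± 148 CPM in AVF-CKD and 386 ± 88.9 CPM in sham, a log2 fold change of 0.10 ± 0.25 (-0.43 to 0.64, edgeR adjusted p = 0.927). The near-identical copy C4a held 7.30 to 8.85% of the C4b level in AVF-CKD and 7.56 to 8.35% in sham, and reads of the pair may not be separable.

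C2 (ENSMUSG00000024371, 34862604 to 34898265) had 50.1, 80.4 and 120 CPM in AVF-CKD against 42.6, 76.6 and 125 CPM in sham, with both extremes in sham. The mean was 85.7 ± 28.9 CPM in AVF-CKD and 82.0 ± 29.5 CPM in sham, a log2 fold change of 0.06 ± 0.26 (-0.51 to 0.63, edgeR adjusted p = 0.961). Its count is uncertain, because 46.9% of its exonic bases overlap other gene models, among them Gm20547, a model that spans C2 and its neighbour Cfb and shares 79.5% of the exonic bases of Cfb. Gm20547, looked up after its overlap was seen, had 320, 618 and 784 CPM in AVF-CKD against 272, 512 and 705 CPM in sham, a log2 fold change of 0.25 ± 0.26 and an adjusted edgeR p of 0.805.

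C3 (ENSMUSG00000024164, chromosome 17, 57203970 to 57228136, minus strand) encodes the component on which all pathways meet. It had 676, 1729 and 2363 CPM in AVF-CKD against 646, 1162 and 1453 CPM in sham. The 4 highest libraries were AVF-CKD, at 1655, 1803, 2300 and 2363 CPM, whereas AVF-CKD 3 (676 CPM) and AVF-CKD 6 (1100 CPM) stood below the sham median. The mean was 1649 ± 664 CPM in AVF-CKD and 1105 ± 274 CPM in sham. The log2 fold change was 0.58 ± 0.28, a fold of 1.49 with a 95% interval of 0.980 to 2.27, and did not pass the threshold (edgeR unadjusted p = 0.0603, adjusted p = 0.550). It was the largest fold change of the 9, and its interval reaches from no difference to more than 2-fold.

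The receptor of C3a, C3ar1 (ENSMUSG00000040552, chromosome 6, 122847138 to 122856161, minus strand), had 159, 220 and 259 CPM in AVF-CKD against 105, 172 and 290 CPM in sham. The AVF-CKD values lay inside the sham range, and 5 of 6 were above the sham median. The mean was 217 ± 36.9 CPM in AVF-CKD and 188 ± 66.3 CPM in sham, a log2 fold change of 0.20 ± 0.21 (-0.25 to 0.65, edgeR adjusted p = 0.808). The receptor of C5a, C5ar1 (ENSMUSG00000049130, chromosome 7, 16246743 to 16259540, minus strand), had 52.2, 83.4 and 106 CPM in AVF-CKD against 45.8, 64.2 and 79.1 CPM in sham. The 3 highest values were AVF-CKD libraries and the 2 lowest sham libraries. The mean was 79.5 ± 20.6 CPM in AVF-CKD and 63.0 ± 14.0 CPM in sham, a log2 fold change of 0.33 ± 0.19 (-0.07 to 0.74, edgeR unadjusted p = 0.0963, adjusted p = 0.602). Macrophage markers had fold changes of the same sign: 10 of 12 were above 1 with a median log2 fold change of 0.20 and none passed, and their summed level was 6609 to 12510 CPM in AVF-CKD and 6289 to 12630 CPM in sham. Lyz2, the most abundant of them, averaged 6551 ± 1724 CPM in AVF-CKD and 5709 ± 1677 CPM in sham. Of the 6 tested neutrophil markers, 5 were above 1 with a median log2 fold change of 0.34 and none passed. Without AVF-CKD 3 these were 3 of 6 and 0.12, and the median was 0.19 without sham 1. S100a9, the most abundant of them per length, averaged 90.2 ± 45.1 CPM in AVF-CKD and 84.8 ± 33.0 CPM in sham. The part of either cell type in the receptor values was not tested.

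Set on a per-length scale (CPM per kilobase, mean of 12 libraries), the order of levels was C1qb at 734, C1qa at 612, C3 at 268, C1qc at 267, C4b at 70.3, C3ar1 at 47.1, C1ra at 44.9, C5ar1 at 27.7 and C2 at 21.7. C1qb was above C1qa in 12 of 12 libraries, and C1qa above C3 in 11 of 12. C3 and C1qc were not ordered beyond their spread, C3 being higher in 3 of 6 AVF-CKD and 1 of 6 sham libraries. The place of C1qc depends on the length of its counted model, 1931 bases against 1088 for C1qb and 1040 for C1qa. C3ar1 was above C1ra in 7 of 12 libraries and C5ar1 above C2 in 8 of 12, so these neighbours were not ordered beyond their spread either. C1qb ranked 55 and C1qa 78 among the 18965 tested genes on this scale, C3 ranked 178, C1qc 180 and C2 2869.

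The rest of the cascade was read from 44 other complement genes, of which 37 passed the filter on low counts. None passed the adjusted threshold in edgeR, DESeq2 or limma, and 9 had an unadjusted edgeR p below 0.05, with 4 fold changes above 1 (5.26% of all tested genes) and 5 below 1 (4.08% of all tested genes). Fold changes were above 1 for 5 of 9 tested genes of classical and lectin recognition and proteases, 3 of 4 in the list of the alternative pathway, which also holds C4a, and 4 of 4 terminal components. They were above 1 for 3 of 5 fluid-phase regulators, 2 of 7 membrane regulators and 7 of 8 receptors. Over all 37 the count was 24, against 49.1% of all tested genes. It was 17 without AVF-CKD 5 and 26 without sham 3. Among the terminal components, the C7 median was 14.2 CPM in AVF-CKD and 14.8 CPM in sham. Hc, which encodes C5, averaged 0.722 CPM in AVF-CKD and 0.499 CPM in sham. The liver-type genes Mbl1, C8b and C4bp were at 0 counts in all libraries, which allows up to 0.0499 to 0.0776 CPM in a library for counting error alone, and Mbl2, Fcnb, C8a and C9 were too low to test.

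**Figure D2:**
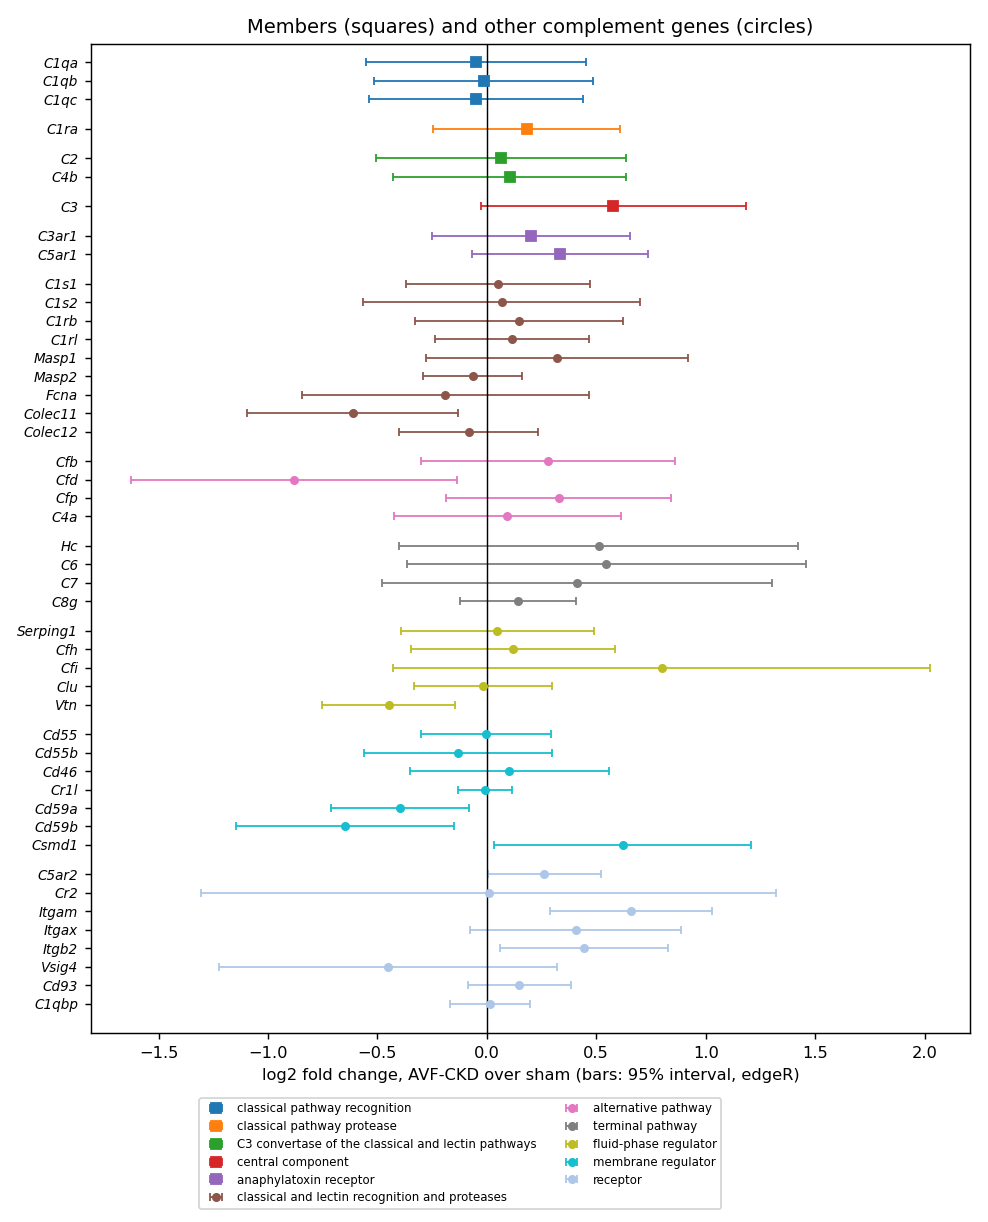
Log2 fold change of AVF-CKD over sham (horizontal axis) with its 95% interval for the 9 members (squares) and 37 other complement genes (circles), grouped by role. The point for C3 lies at 0.58 and that of Itgam at 0.66, and no gene passed the adjusted threshold.

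Itgam and Itgb2 encode the chains of complement receptor 3, an integrin of myeloid cells that binds a C3 fragment. Itgam was the single gene among the 9 members and 37 other complement genes whose groups did not overlap, against 0.638% of all tested genes. It had 238 to 348 CPM in AVF-CKD against 114 to 235 CPM in sham. Its log2 fold change was 0.66 ± 0.17 (edgeR unadjusted p = 0.00211, adjusted p = 0.390, DESeq2 adjusted p = 0.0539). In GENCODE M21, 68.7% of the exonic bases of Itgam overlap the model Gm49368 on the same strand. The counted Itgam model was longer, at 6377 against 5024 bases, so its overlap may differ. Itgb2, the most abundant receptor gene per length, averaged 294 ± 66.6 CPM in AVF-CKD and 216 ± 47.7 CPM in sham, a log2 fold change of 0.44 ± 0.18 and an adjusted edgeR p of 0.496. C5ar2, a further C5a receptor, averaged 7.55 ± 0.477 CPM in AVF-CKD and 6.30 ± 1.14 CPM in sham, a log2 fold change of 0.26 ± 0.12 and an adjusted edgeR p of 0.527.

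Among the regulators, Cd59a, Cd59b, Vtn and Csmd1 had an unadjusted edgeR p below 0.05, and none passed the adjusted threshold. Cd59a, which blocks assembly of the membrane attack complex on cells, averaged 19.5 ± 3.16 CPM in AVF-CKD and 25.7 ± 5.54 CPM in sham, a log2 fold change of -0.40 ± 0.15 and an adjusted edgeR p of 0.481. Its copy Cd59b averaged 1.22 ± 0.368 CPM in AVF-CKD and 1.90 ± 0.369 CPM in sham, at -0.65 ± 0.23 (edgeR adjusted p = 0.458). Vtn, which encodes vitronectin, an inhibitor of the same step, averaged 7.75 ± 0.604 CPM in AVF-CKD and 10.6 ± 2.39 CPM in sham, at -0.45 ± 0.14 (edgeR adjusted p = 0.409). Csmd1, a further membrane regulator, went the other way, with 2.67 ± 0.998 CPM in AVF-CKD and 1.73 ± 0.560 CPM in sham, at 0.62 ± 0.27 (edgeR adjusted p = 0.512). The most abundant regulators per length had close means: Serping1, the C1 inhibitor, averaged 1068 ± 284 CPM in AVF-CKD and 1034 ± 247 CPM in sham, and Cd55, which speeds decay of the C3-cutting enzymes, averaged 72.4 ± 11.99 CPM in AVF-CKD and 72.5 ± 14.2 CPM in sham.

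Colec11, a recognition collectin of the lectin pathway, averaged 9.12 ± 2.32 CPM in AVF-CKD and 14.0 ± 3.95 CPM in sham, a log2 fold change of -0.61 ± 0.22 and an adjusted edgeR p of 0.477. Cfd, factor D of the alternative pathway and a product of fat cells, averaged 453 ± 126 CPM in AVF-CKD and 834 ± 529 CPM in sham, at -0.88 ± 0.34 (edgeR adjusted p = 0.490). Sham 6 held 1802 CPM of Cfd and the other sham libraries 398 to 1046 CPM. Without sham 6 the log2 fold change of Cfd was -0.50, with an unadjusted edgeR p of 0.079. Of 8 adipocyte markers, 0 had a fold change above 1, their median log2 fold change was -1.05 and none passed, with sums of 518 to 1118 CPM in AVF-CKD and 640 to 2749 CPM in sham. Sham 6 held the highest sum, and without it 2 of 8 were above 1, the median was -0.42 and the sham sums were 640 to 1303 CPM. The part of fat tissue in the Cfd value was not tested. C7, the most abundant terminal component per length, had 5.88 to 50.5 CPM in AVF-CKD and 7.83 to 18.0 CPM in sham.

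Across the 12 libraries the members varied along 2 lines. Of 36 member pairs, 16 had a Pearson correlation of log2 CPM past an adjusted p of 0.05 (100000 permutations, Benjamini-Hochberg over the 36 pairs). These were the 10 pairs among C1qa, C1qb, C1qc, C3ar1 and C5ar1 and the 6 pairs among C1ra, C2, C4b and C3, and the sets are named from these correlations, not from another source. Within the set of C1q chains and receptors, r ranged over 0.714 to 0.998 and Spearman's rho over 0.699 to 0.986, with adjusted permutation p of 9e-05 to 0.026 for r and all 10 pairs passing by either measure. The r was 0.825 to 0.999 within AVF-CKD and 0.823 to 0.998 within sham, and 0.779 to 0.997 after leaving out the 2 libraries farthest from the median of the first gene. Within title numbers 1 to 3 it was 0.447 to 0.998, lowest for C1qa with C5ar1, and within numbers 4 to 6 it was 0.707 to 0.995. Within the set of C1ra, C2, C4b and C3, r ranged over 0.725 to 0.925 and rho over 0.503 to 0.902, with adjusted permutation p of 9e-05 to 0.02 for r, and 3 of 6 pairs passed by Spearman's rho. This set leaned on AVF-CKD 3 and sham 5: without both, r was 0.407 to 0.836 over the other 10 libraries. Its r was 0.339 to 0.879 within title numbers 1 to 3 and 0.886 to 0.987 within numbers 4 to 6. The 20 pairs between the sets had r of -0.527 to 0.212 (adjusted permutation p of 0.166 to 0.98). That 0 of 20 passed follows from how the sets were named.

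**Figure D3:**
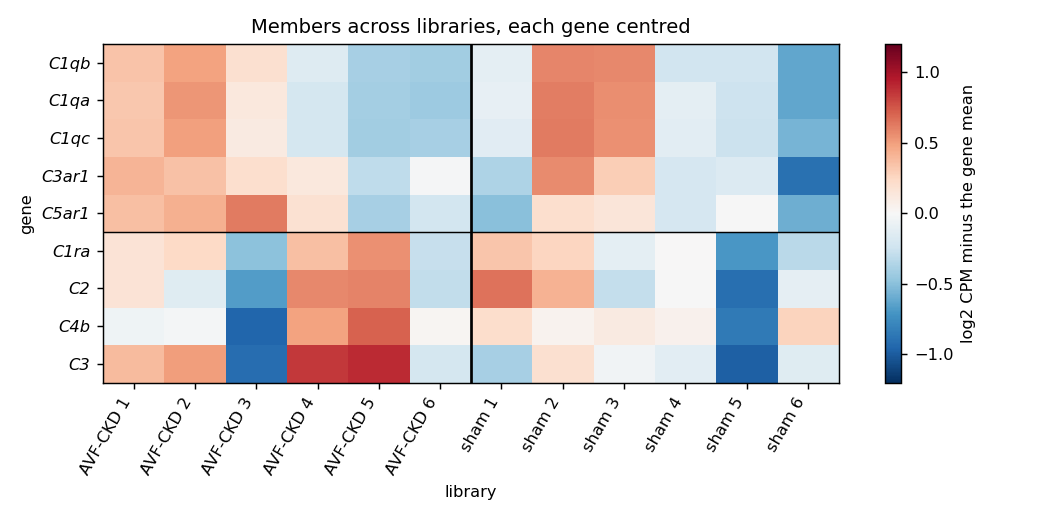
Log2 CPM of each member minus its mean over the 12 libraries (colour), with genes down the page and AVF-CKD libraries left of sham libraries. AVF-CKD 3 and sham 5 are low in C1ra, C2, C4b and C3, where C4b stood at 197 and 212 CPM. In C1qb they stood at 878 and 655 CPM, against group medians of 784 CPM in AVF-CKD and 680 CPM in sham.

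Marker lists were set beside the members in 63 pairs of a member and the mean log2 CPM of a list, of which 8 passed by Pearson's r, 8 by Spearman's rho and 7 by both (permutation p adjusted over the 63). The 12 macrophage markers had r of 0.869 with C1qa, 0.877 with C1qb, 0.878 with C1qc, 0.933 with C3ar1 and 0.873 with C5ar1. All 5 passed by both measures, with an adjusted permutation p of 0.00063 for C3ar1 and 0.00655 for the others by r, and r was 0.886 to 0.986 within AVF-CKD and 0.885 to 0.927 within sham. The r of the macrophage list with C1ra, C2, C4b and C3 was 0.135, -0.101, -0.232 and 0.218. The 7 fibroblast markers had r of 0.793 and rho of 0.804 with C2 (adjusted permutation p = 0.0232 for r) and r of 0.771 and rho of 0.804 with C4b (adjusted permutation p = 0.0275 for r). After leaving out the 2 libraries farthest from the median, r was 0.755 for C2 and 0.709 for C4b. The fibroblast r with C1ra (0.650, adjusted permutation p = 0.146) and C3 (0.424, adjusted permutation p = 0.425) did not pass. C3ar1 had r of -0.741 with the endothelial list (adjusted permutation p = 0.0424) but did not pass by rho (-0.657, adjusted permutation p = 0.126), and C4b passed with the adipocyte list by rho (0.762, adjusted permutation p = 0.0435) but not by r (0.481, adjusted permutation p = 0.314). Between the groups, 3 of 7 fibroblast markers had a fold change above 1, with a median log2 fold change of -0.17 and sums of 18430 to 33110 CPM in AVF-CKD and 19730 to 32620 CPM in sham. Dcn, the most abundant of them per length, averaged 2660 ± 782 CPM in AVF-CKD and 3261 ± 736 CPM in sham. Of 7 endothelial markers, 1 had a fold change above 1, with a median log2 fold change of -0.14 and sums of 912 to 1490 CPM in AVF-CKD and 1088 to 1527 CPM in sham. These correlations share the same 12 libraries, and whether cell content sets them was not tested.

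**Figure D4:**
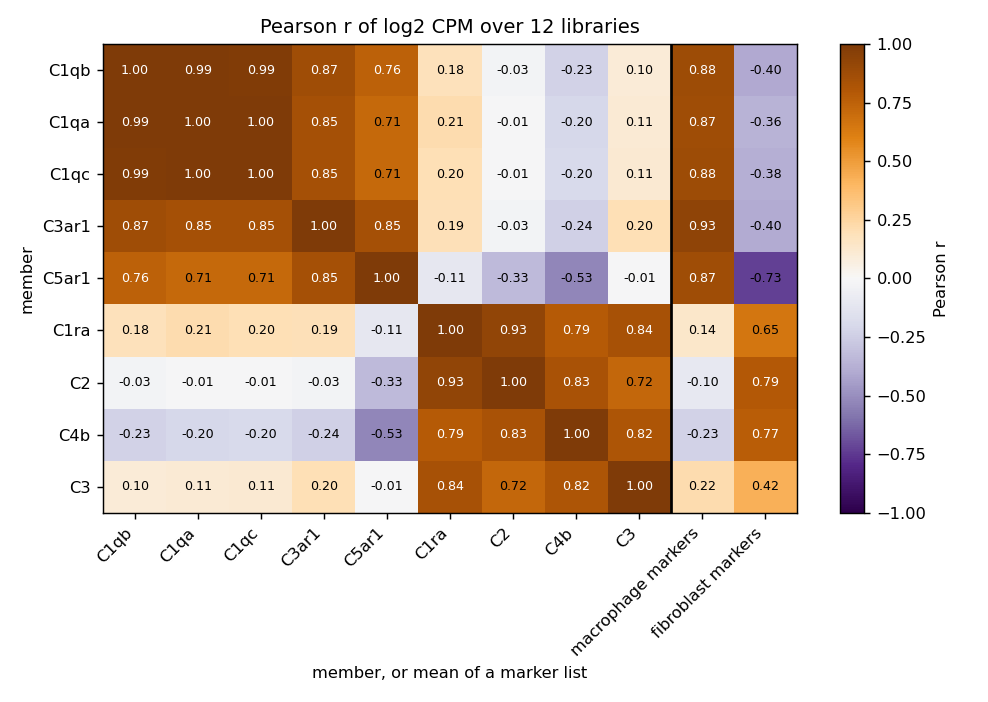
Pearson r of log2 CPM over 12 libraries (colour and printed value) between members, left of the line, and between each member and the mean of a marker list, right of it. The 5 genes of the C1q and receptor set have r of 0.869 to 0.933 with the macrophage list.

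Ratios within a library were formed for 11 gene pairs. Each was tested over all 924 assignments of the libraries (exact permutation, two-sided, smallest possible p 0.00216) with adjustment over the 11, and 0 of 11 passed. The ratio of C1ra to C1s1 was 0.262, 0.271 and 0.289 in AVF-CKD (lowest, median and highest) against 0.230, 0.246 and 0.268 in sham. All 6 AVF-CKD values were above the sham median, the difference was 0.15 on the log2 scale (exact p = 0.0108, adjusted p = 0.119), and without sham 2 it was 0.17 and passed (exact adjusted p = 0.0476). Leaving out each library in turn gave differences of 0.13 to 0.17 and exact adjusted p of 0.0476 to 0.262. The ratio of C4b to C3 was 0.208, 0.248 and 0.355 in AVF-CKD against 0.271, 0.336 and 0.458 in sham, a difference of -0.44 (exact p = 0.0260, adjusted p = 0.143), with 5 of 6 AVF-CKD libraries below the sham median. Set against Csf1r, a receptor that marks macrophages, C1qb had ratios of 1.10, 1.21 and 1.68 in AVF-CKD and 1.21, 1.64 and 2.03 in sham, a difference of -0.31 (exact p = 0.104, adjusted p = 0.229). The ratios of C1qa and C1qc to Csf1r both differed by -0.35 (exact adjusted p = 0.179 for each), and those of C3ar1 and C5ar1 by -0.06 (0.712) and -0.0020 (0.991). C1qa to C1qb and C1qc to C1qb both differed by -0.04 (exact adjusted p = 0.262 for each), C2 to Cfb by -0.20 (0.682) and C3ar1 to C5ar1 by -0.06 (0.712). In GENCODE M21, C1s1 shares 18.4% and Csf1r 15.1% of their exonic bases with a gene model on the opposite strand. The counted Csf1r model was shorter, at 4885 against 5774 bases, so its overlap may differ. C2 and Cfb share exonic bases with Gm20547. These overlaps limit those ratios.

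**Figure D5:**
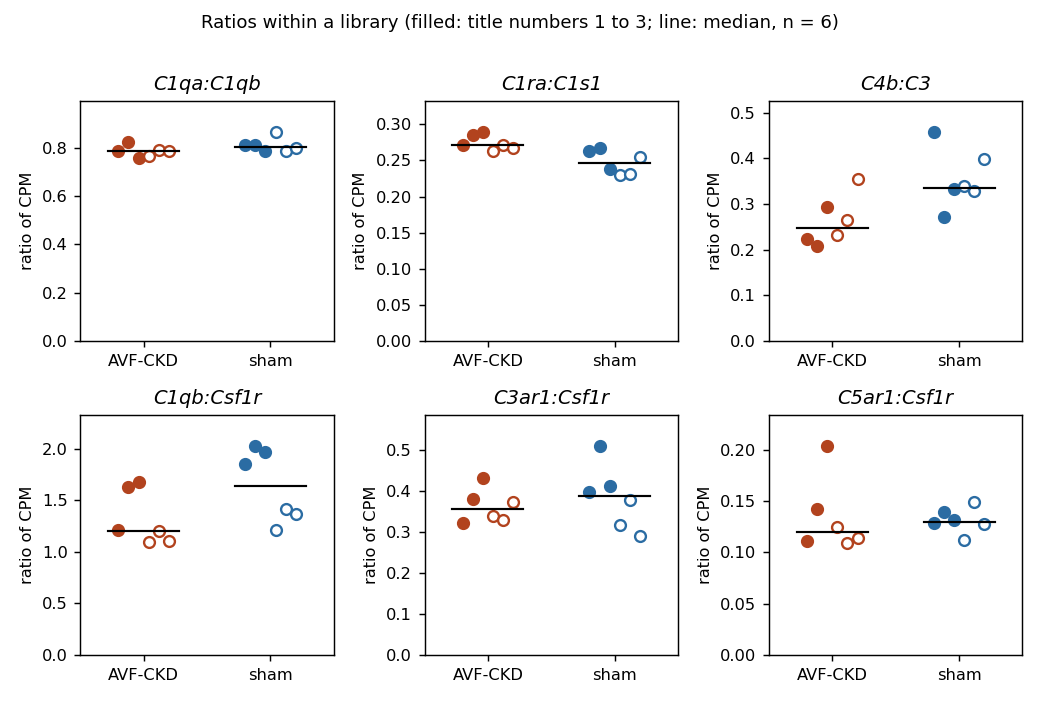
Ratio of the CPM of the named gene pairs within each library (vertical axes, from 0) in AVF-CKD and sham, with filled points for title numbers 1 to 3 and a line at the median of 6. The C1ra to C1s1 medians are 0.271 in AVF-CKD and 0.246 in sham, and the groups overlap.

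Profiles closest to a member were sought among 16057 genes as the smallest root mean square gap in centred log2 CPM over the 12 libraries. C1qb was closest to C1qa (gap 0.048), C1qc (0.050) and Ptpn18 (0.088), where the spread of C1qb itself was 0.401. C3ar1 was closest to Ptpn6 (0.097), a phosphatase of blood cells, Traf1 (0.130) and Cd180 (0.133), with a spread of 0.394. For C5ar1, Gm9025 (0.099) and Fxyd5 (0.111) were among the 3 nearest, with a spread of 0.370. C4b was closest to its copy C4a (0.080), then Klhl15 (0.203) and Podn (0.210), with a spread of 0.456. C3 had no profile as near: Lgi2 (0.277), C1rb (0.294) and Sned1 (0.300) came first, against a spread of 0.576.

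Several members had unlike fold changes in title numbers 1 to 3 and 4 to 6, though no such difference passed as an interaction. Among numbers 1 to 3, C4b had 197 to 375 CPM in AVF-CKD, all below the 393 to 443 CPM of sham, and a log2 fold change of -0.41 ± 0.24. Within these 6 libraries, 8.48% of 19140 tested genes had all AVF-CKD values below sham and 8.56% had all of them above. Among numbers 4 to 6 it had 390 to 624 CPM in AVF-CKD and 212 to 459 CPM in sham, a log2 fold change of 0.53 ± 0.30. C2 likewise had -0.49 ± 0.29 in numbers 1 to 3 and 0.63 ± 0.31 in numbers 4 to 6, and C1ra had -0.17 ± 0.21 and 0.56 ± 0.25. AVF-CKD 3 falls in numbers 1 to 3 and sham 5 in numbers 4 to 6, each the lowest of its group for these genes. AVF-CKD 1 and 2 had 134 and 142 CPM of C1ra, inside the 111 to 151 CPM of sham 1 to 3. Their C2, at 89.1 and 71.7 CPM, lay inside 65.3 to 125 CPM, and their C4b, at 368 and 375 CPM, below sham. How far the sign changes rest on these libraries was not tested. C3 had 0.18 ± 0.36 in numbers 1 to 3 and 0.96 ± 0.35 in numbers 4 to 6, where its adjusted edgeR p was 0.428. C5ar1 showed the other order, with 88.4 to 106 CPM in AVF-CKD against 48.6 to 79.1 CPM in sham for numbers 1 to 3, a log2 fold change of 0.50 ± 0.18 with an adjusted edgeR p of 0.471, and 0.12 ± 0.20 for numbers 4 to 6. The difference between the 2 sets of numbers did not pass for any member when tested as an interaction over all genes (edgeR adjusted p of 0.519 to 0.990). It was largest for C2 (1.12 ± 0.47, unadjusted p = 0.0346) and C4b (0.94 ± 0.43, unadjusted p = 0.0488), and 0 genes of all passed, with 1749 at an unadjusted p below 0.05.

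Both groups carried more C1q in numbers 1 to 3: C1qb had 878 to 1070 CPM in AVF-CKD and 706 to 1155 CPM in sham there, against 576 to 690 CPM in AVF-CKD and 497 to 655 CPM in sham for numbers 4 to 6. Its log2 fold change was close to 0 in each, at -0.04 ± 0.20 and 0.03 ± 0.15. Fibroblast markers had fold changes of the same sign as C1ra, C2 and C4b in each set: 0 of 7 were above 1 in numbers 1 to 3 (median log2 fold change -0.43) and 7 of 7 in numbers 4 to 6 (median 0.09). Neutrophil markers had the order of C5ar1, with 7 of 7 tested above 1 in numbers 1 to 3 (median 0.94) and 4 of 8 in numbers 4 to 6 (median 0.05). So did macrophage markers, with 10 of 12 above 1 in each set and medians of 0.24 and 0.08. Over all 12 libraries the neutrophil list did not pass with C5ar1 (r of 0.550, adjusted permutation p = 0.215). Skeletal muscle markers also had the order of C5ar1 and were opposite in sign to the fibroblast markers in each set. Of 8, 8 were above 1 in numbers 1 to 3 (median 1.06) and 0 in numbers 4 to 6 (median -1.77). The labels do not say what the title numbers stand for, and the part of tissue content in these values was not tested.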

How the data were processed

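RNA of 12 vein samples (6 AVF-CKD, 6 sham) was sequenced after preparation with the TruSeq v2 kit, per the labels' protocols; this kit does not mark strand. The authors deposited whole-number read counts per gene and RPKM values; the RPKM values were not used for any test. The submitters' processing notes name GRCm38, TopHat2 2.1.0, featureCounts and edgeR, without the role of each. The sources used here do not give how strand was handled or which reads were dropped. Of 43346 gene models, 42462 identifiers were found in GENCODE M21. Models that copy ribosomal DNA held 3.90% to 7.47% of counts and copies of mitochondrial sequence 2.09% to 3.85%. All 66 library pairs differed by more than sampling noise (chi-square over its degrees of freedom, 47.8 to 212). Per-sample columns of other series numbered 0.

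The deposited counts passed through filterByExpr by group and TMM scaling, and were tested with edgeR 4.0.16 in R 4.3.3 (quasi-likelihood F-test, group as the single term, Benjamini-Hochberg over 18965 genes, threshold 0.05). The biological coefficient of variation was 24.2%. Log2 CPM used a prior count of 2 and ratios a prior of 0.5 CPM. The voom fit of limma 3.58.1 with sample weights, DESeq2 1.42.0, other scalings and filters, the title number as a block, title-number sets and leaving out each library were alternatives. The fits were tested on simulated counts. Named genes were all members, in each role of the other complement genes the most abundant per length, each with an unadjusted p below 0.05 and each whose groups did not overlap, the most abundant of the marker lists used, and the 3 nearest profiles of 5 members, of which 1 gene is not reported here. Cfb, C4a, C1rb, Csf1r and Gm20547 were named as partners, copies or overlapping models, and Hc, Itgax and Cr1l because a library stood apart. Promoters are RefSeq's (GRCm38.p6), present for 6 of 9 members; the C/EBP motif was added after the windows were seen. The members and lists were chosen with earlier results of these data known.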

Additional observations from a re-analysis of the deposited data

Results flagged for a closer look

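In groups of 6, a library was singled out when its gap to the nearest other library was above Dixon's 95% critical share of the group's range. Over 114 groups checked, 7 were singled out, and chance does so in about 1 in 20. Among members, sham 5 was low in C4b at 212 CPM, with the other sham libraries at 393 to 459 CPM. Among other complement genes, AVF-CKD 5 was high in C7, a terminal component, at 50.5 CPM against 5.88 to 16.9 CPM in the other AVF-CKD libraries, and in Hc, which encodes C5, at 1.75 CPM against 0.296 to 0.827 CPM. AVF-CKD 3 was high in Itgax, a chain of complement receptor 4, at 129 CPM against 58.7 to 83.8 CPM, and in the ratio of C5ar1 to Csf1r at 0.204 against 0.109 to 0.143. Sham 3 was high in Cr1l, a membrane regulator, at 91.8 CPM against 79.5 to 83.8 CPM, and sham 4 in the ratio of C1qa to C1qb at 0.865 against 0.785 to 0.811.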

How the results depend on the processing

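The count of members called was 0 under every alternative run. DESeq2 called 81 genes of all (51 higher and 30 lower in AVF-CKD), against 0 in edgeR (1772 at an unadjusted p below 0.05) and 0 in limma (2124). Leaving out a library gave 0 to 1 genes called (1 without AVF-CKD 3) and 0 to 1 ratios passing (1 without sham 2). Over these refits the log2 fold change was -0.17 to 0.084 for C1qa, -0.12 to 0.12 for C1qb, -0.16 to 0.087 for C1qc, 0.079 to 0.28 for C1ra, -0.073 to 0.22 for C2, -0.050 to 0.25 for C4b, 0.45 to 0.74 for C3, 0.080 to 0.37 for C3ar1 and 0.24 to 0.43 for C5ar1, and the log2 ratio difference was -0.13 to 0.013 for C3ar1 to C5ar1, -0.14 to 0.022 for C3ar1 to Csf1r and -0.13 to 0.051 for C5ar1 to Csf1r. In limma the sign turned for C1qa (0.014), C1qb (0.058) and C1qc (0.014), in title numbers 1 to 3 for C1ra (-0.17), C2 (-0.49) and C4b (-0.41), and in numbers 4 to 6 for C1qb (0.034). The cause was not tested. The fit with the title number as a block turned C1qb (0.014) and called 0 members. Samples of the same number had correlations of -0.11 to 0.28 and 2 of 6 were closest to their own number, so the numbers were not taken as pairs. Scaling, filter, and removal of ribosomal DNA and mitochondrial copies turned no member's sign. Leaving out a library raised the highest unadjusted edgeR p to 0.116 for Csmd1, 0.0904 for C5ar2 and 0.0696 for Itgb2, whereas it stayed below 0.05 for Itgam, Vtn, Cd59a, Cd59b and Colec11. Adding the title-number set as a term, chosen after seeing the data, called 0 members.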

Other observations

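Of 15 interferon-response genes, 0 had a fold change above 1 in AVF-CKD, the median log2 fold change was -0.59, and none passed. Without sham 2 these were 2 of 15 and -0.34. Their summed level was 824 to 1204 CPM in AVF-CKD and 869 to 2194 CPM in sham, where sham 2 was highest and the other sham libraries reached 1343 CPM. Bst2, the most abundant per length, averaged 143 ± 32.3 CPM in AVF-CKD and 199 ± 90.4 CPM in sham. Lymphocyte and mast cell markers were scarce in both groups. Cd3g, a T cell receptor chain, averaged 4.83 ± 1.55 CPM in AVF-CKD and 5.47 ± 2.70 CPM in sham, and Mcpt4, a mast cell protease, averaged 9.76 ± 4.45 CPM in AVF-CKD and 11.6 ± 4.36 CPM in sham. Fold changes were above 1 for 1 of 7 T and B cell markers (median log2 fold change -0.25) and 1 of 7 mast cell markers (median -0.30), and none passed.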
